A study of Mus musculus with 9 samples.

Results

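The 10 genes described here encode the NF-κB subunits and proteins that inhibit or regulate them. They are Rela, Relb, Rel, Nfkb1 and Nfkb2 among the subunits, and Nfkbia, Nfkbie, Nfkbiz, Bcl3 and Tnfaip3 among the inhibitors and regulators. They were chosen by name, with earlier results of these data known, and all 10 were found among the 22054 genes measured. Poly(A) RNA was sequenced from the whole callus of the fractured femur of male C57BL/6J mice, given as 7 weeks old by the labels, on day 7 after surgery. All mice carried the same pinned fracture and received a daily intraperitoneal injection of 200 μl from the day after surgery. The injection held H-151 at 750 nmol, SR-717 at 30 mg/kg, or PBS as the control, with 3 libraries in each of the 3 groups. The solvent of the drugs is not given. H-151 is a covalent inhibitor of STING, the membrane adaptor that senses cyclic dinucleotides made by cGAS from cytosolic DNA, and SR-717 is an agonist of STING. The sources do not say what a replicate number stands for, so p-values measure only the spread between these libraries.

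NF-κB is a family of dimeric transcription factors. In the canonical pathway, dimers such as p65 (encoded by Rela) with p50 (processed from the Nfkb1 product p105) are kept in the cytoplasm by IκB proteins until the IKK complex marks the IκB for degradation. In the non-canonical pathway, the Nfkb2 product p100 is cut to p52, which partners with RelB. Several inhibitors are themselves transcribed by NF-κB, so that activation raises its own brakes: IκBα (Nfkbia), IκBε (Nfkbie) and the ubiquitin-editing enzyme A20 (Tnfaip3) are the textbook cases. STING signals mainly through TBK1 and IRF3, and also to NF-κB. In bone, NF-κB acts downstream of RANK in osteoclast formation, and it drives the inflammatory phase after injury.

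In GRCm38, Rela (ENSMUSG00000024927) lies at chr19:5637483-5648130 on the plus strand and Nfkb2 (ENSMUSG00000025225) at chr19:46304320-46312385 on the plus strand. Relb (ENSMUSG00000002983) occupies chr7:19606217-19629438 and Bcl3 (ENSMUSG00000053175) chr7:19808462-19822770, both on the minus strand. Rel (ENSMUSG00000020275) is at chr11:23736847-23770970 and Nfkb1 (ENSMUSG00000028163) at chr3:135584655-135691547, both on the minus strand. Nfkbia (ENSMUSG00000021025) is at chr12:55489410-55492647, Nfkbiz (ENSMUSG00000035356) at chr16:55811375-55838899 and Tnfaip3 (ENSMUSG00000019850) at chr10:19000910-19015657, each on the minus strand. Nfkbie (ENSMUSG00000023947) is at chr17:45555703-45563169 on the plus strand. All 10 are protein coding.

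Promoter sequence is shown for 5 of the genes, because κB elements are the sites through which NF-κB can reach its own inhibitors and subunits. RefSeq promoter windows on GRCm38.p6 were at hand for 7 of the 10 genes (10 windows, with 3 for Nfkb2 and 2 for Tnfaip3), and Relb, Nfkb1 and Nfkbiz had none. The 250 bases before each start were searched on both strands for the κB consensus. A second form, GGG and TTTCC with any pair of bases between them, was searched as well. In the windows of these genes, its matches were also matches to the consensus. A match to the consensus was present in 7 of the 10 windows, against 1281 of 32851 promoter windows of the same length (3.9%). The second form occurred in 464 of those 32851 windows (1.41%). Counted by gene, 5 of the 7 had a match in at least 1 window, against 1204 of 27025 genes (4.46%). Matches are a description of the letters and not evidence of binding. Nfkbia and Rel are given in full, 5′ to 3′ on the strand of the gene and ending at the base before the start, with the matches in capitals. The windows are chr12:55492648-55492897 and chr11:23770970-23771219.
Nfkbia: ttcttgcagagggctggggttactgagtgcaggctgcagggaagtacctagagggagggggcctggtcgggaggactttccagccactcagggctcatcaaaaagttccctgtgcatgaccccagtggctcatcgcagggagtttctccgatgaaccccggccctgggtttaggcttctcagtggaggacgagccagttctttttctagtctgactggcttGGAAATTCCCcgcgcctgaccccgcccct
Rel: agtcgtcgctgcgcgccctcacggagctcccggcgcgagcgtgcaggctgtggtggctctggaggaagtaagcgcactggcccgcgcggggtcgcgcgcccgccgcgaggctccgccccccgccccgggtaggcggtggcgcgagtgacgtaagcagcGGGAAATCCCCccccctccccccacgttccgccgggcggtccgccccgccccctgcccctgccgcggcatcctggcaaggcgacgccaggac

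The capitals in Nfkbia sit 29 to 20 bases before the start and read GGGAATTTCC on the opposite strand. In Rel, overlapping matches on both strands fill the stretch from 92 to 82 bases before the start. For Tnfaip3, Nfkb2 and Nfkbie, the shorter stretches around the matches are given, again on the strand of the gene with the match in capitals.
Tnfaip3, chr10:19015411-19015432: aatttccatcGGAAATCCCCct
Tnfaip3, chr10:19015516-19015545: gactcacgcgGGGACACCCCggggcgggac
Nfkb2, chr19:46304688-46304717: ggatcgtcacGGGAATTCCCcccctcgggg
Nfkb2, chr19:46304716-46304736: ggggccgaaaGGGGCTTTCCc
Nfkb2, chr19:46305695-46305724: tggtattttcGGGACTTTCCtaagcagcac
Nfkbie, chr17:45555584-45555613: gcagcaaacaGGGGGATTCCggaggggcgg

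The Tnfaip3 match next to the start lies 12 to 3 bases before it, and the Nfkbie match 106 to 97 bases before its start. The other Tnfaip3 window, chr10:19011964-19012213, held no match. In the first Nfkb2 stretch, an overlapping match on the opposite strand lies 38 to 29 bases before the start and runs past the capitals shown. Another Nfkb2 window held a further match, 236 to 227 bases before that start. In the windows of Rela and Bcl3 these letters were not found, which says only that they are absent from the 250 bases searched.

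The depth of the libraries ranged from 16987398 to 23272480 expected counts. On the first principal component of log2 CPM (counts scaled to the size of the library), which held 46.56% of the variance, the library SR-717 replicate 1 stood at 100.6 and PBS replicate 1 at 38.78, while the other 7 libraries lay between -28.82 and -4.03. These 2 libraries also differed in their cell-type markers, so the tests of the 10 genes and the main counts of the other lists are also given without them. Monocyte and macrophage markers summed to 9213 CPM in SR-717 replicate 1, 5158 in PBS replicate 1 and 3147 to 4449 in the other 7, and neutrophil markers to 14650, 3550 and 579 to 4532. Chondrocyte markers summed to 266, 1634 and 4687 to 16820 CPM in the same order, T cell markers to 31.6, 12.3 and 6.95 to 10.9, and erythroid markers to 799, 428 and 1485 to 13740. Osteoblast markers summed to 22540, 29620 and 29070 to 45050 CPM, in keeping with the labelled tissue, bone, but most of each sum was Col1a1. Col1a1 had 21130 CPM in SR-717 replicate 1 and 26980 in PBS replicate 1. Over the 8 osteoblast markers, the median log2 difference from the other libraries of the same group was -1.39 in SR-717 replicate 1 and -1.035 in PBS replicate 1. Osteoclast markers summed to 5821, 8101 and 6173 to 10930 CPM, muscle markers to 9045, 11820 and 3965 to 23060, endothelial markers to 900, 1057 and 887 to 1062, and B cell markers to 10.2, 6.62 and 10.3 to 57.9. Of these lists, only the B cell list had a marker at 0, Ms4a1 in PBS replicate 1. The part of these markers in the results was not tested. In bulk tissue, fewer cells of a type and less RNA per cell cannot be told apart.

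**Figure D1:**
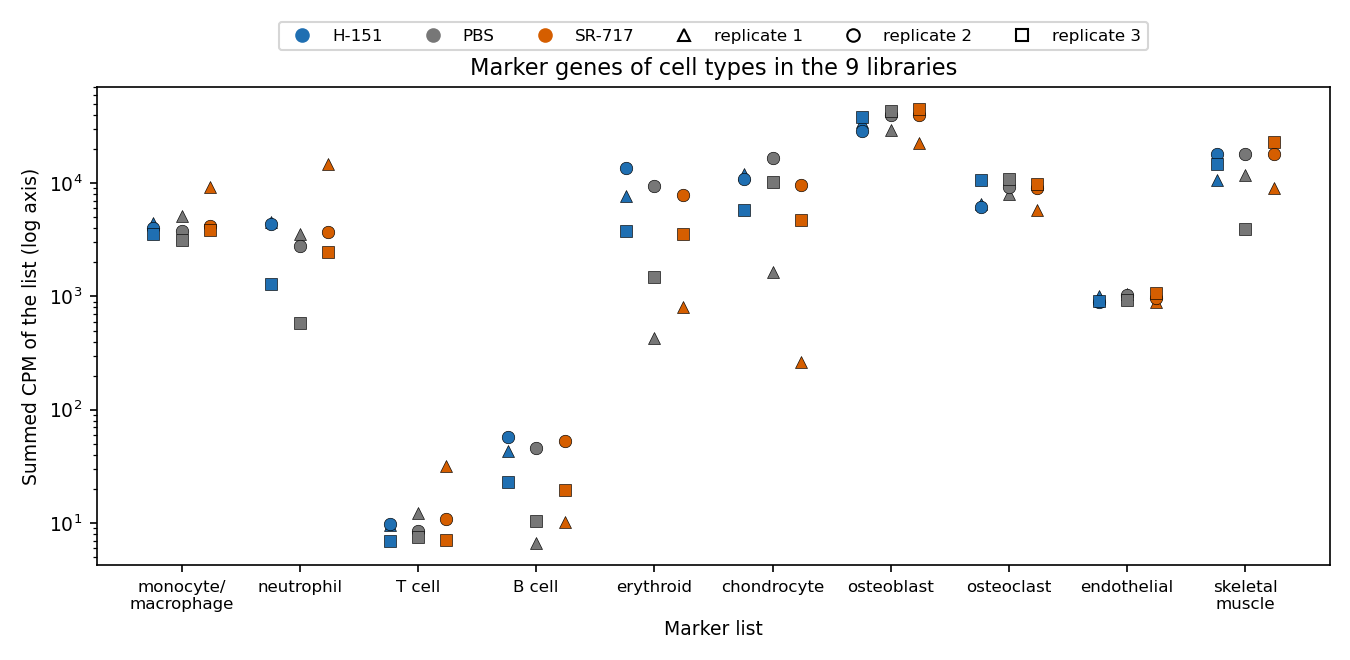
Summed CPM of the cell-type marker lists in each of the 9 libraries, on a log axis, coloured by group and shaped by replicate number. SR-717 replicate 1 is highest for monocyte and macrophage (9213), neutrophil (14650) and T cell markers (31.6) and lowest for chondrocyte markers (266).

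Levels of different genes were set side by side in TPM, the transcript measure that is also scaled for gene length. By the mean of the PBS libraries the order was Nfkbia, Rela, Nfkb1, Bcl3, Nfkb2, Relb, Nfkbie, Tnfaip3, Nfkbiz and Rel, and the PBS ranges of every pair of neighbours in that order overlapped. Within a library the order was steadier. Rela exceeded Nfkb1, Nfkb2 exceeded Relb, Relb exceeded Nfkbie, and Nfkbiz exceeded Rel in 9 of 9 libraries, whereas Nfkb1 exceeded Bcl3 in 7 and Bcl3 exceeded Nfkb2 in 5. Leaving aside the first SR-717 and PBS libraries, the other 7 held Nfkbia between 48.1 and 68.4 TPM, Rela between 41.4 and 71.0, and Nfkb1 between 29.1 and 48.6. At the low end, Tnfaip3 lay between 6.89 and 10.6 TPM, Nfkbiz between 3.94 and 7.93, and Rel, which encodes the lymphoid and myeloid subunit c-Rel, between 2.18 and 3.79. In SR-717 replicate 1 the order was different. Nfkbia stood first at 352 TPM, followed by Bcl3 at 93.1, Tnfaip3 at 84.2 and Nfkbiz at 81.1, all above Rela at 81.0. Tnfaip3 ranked 8 of 10 in each of the other 8 libraries.

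The values of the subunits are given as CPM for replicates 1, 2 and 3 of each group. Rela, the main transactivating subunit, had 72.0, 71.6 and 67.8 CPM with H-151, 89.8, 96.5 and 62.3 with PBS, and 127, 65.7 and 78.2 with SR-717. Nfkb1, the precursor of p50, had 68.3, 63.1 and 49.5 with H-151, 73.0, 66.6 and 54.1 with PBS, and 121, 54.1 and 60.8 with SR-717. Both genes were highest in SR-717 replicate 1, and the groups overlapped in every comparison. Without the first SR-717 and PBS libraries, the remaining 7 spanned 0.63 (Rela) and 0.46 (Nfkb1) on the log2 CPM scale.

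Relb and Nfkb2 belong to the non-canonical arm, and Rel is the remaining subunit. Relb had 24.2, 20.4 and 19.1 CPM with H-151, 39.9, 22.7 and 19.4 with PBS, and 61.6, 19.8 and 24.2 with SR-717. Nfkb2, the precursor of p52, had 47.0, 37.6 and 41.1 with H-151, 81.7, 52.1 and 39.7 with PBS, and 142, 43.0 and 54.7 with SR-717. For Rel the values were 13.8, 9.76 and 12.0 with H-151, 21.8, 8.58 and 11.0 with PBS, and 44.4, 11.1 and 8.70 with SR-717. In each of these genes SR-717 replicate 1 was highest and PBS replicate 1 second, and all other libraries lay close together, within 0.34 (Relb), 0.54 (Nfkb2) and 0.68 (Rel) on the log2 scale.

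Among the cytoplasmic inhibitors, Nfkbia had 52.6, 41.2 and 54.5 CPM with H-151, 147, 47.0 and 42.6 with PBS, and 333, 43.1 and 52.2 with SR-717. Nfkbie had 23.1, 17.1 and 15.4 with H-151, 37.7, 18.4 and 17.8 with PBS, and 67.5, 19.2 and 19.6 with SR-717. The SR-717 and PBS groups thus each held 1 high library and 2 that lay at the H-151 level. The 7 remaining libraries spanned 0.40 for Nfkbia and 0.58 for Nfkbie on the log2 scale.

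The nuclear IκB proteins and A20 followed, with the widest spread in Nfkbiz. Nfkbiz encodes IκBζ, a nuclear cofactor of p50 at secondary response genes. Its values were 14.1, 11.8 and 11.1 CPM with H-151, 61.3, 9.26 and 11.3 with PBS, and 177, 12.2 and 7.65 with SR-717. Tnfaip3 had 21.8, 16.1 and 20.9 with H-151, 68.6, 19.3 and 15.8 with PBS, and 207, 19.5 and 22.0 with SR-717. Bcl3, a nuclear partner of p50 and p52 homodimers, had 28.2, 25.1 and 17.7 with H-151, 53.7, 32.8 and 17.2 with PBS, and 101, 22.7 and 31.1 with SR-717. Again SR-717 replicate 1 was highest and PBS replicate 1 second in all 3 genes, and the 7 other libraries spanned 0.87 (Nfkbiz), 0.48 (Tnfaip3) and 0.93 (Bcl3) on the log2 scale.

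**Figure D2:**
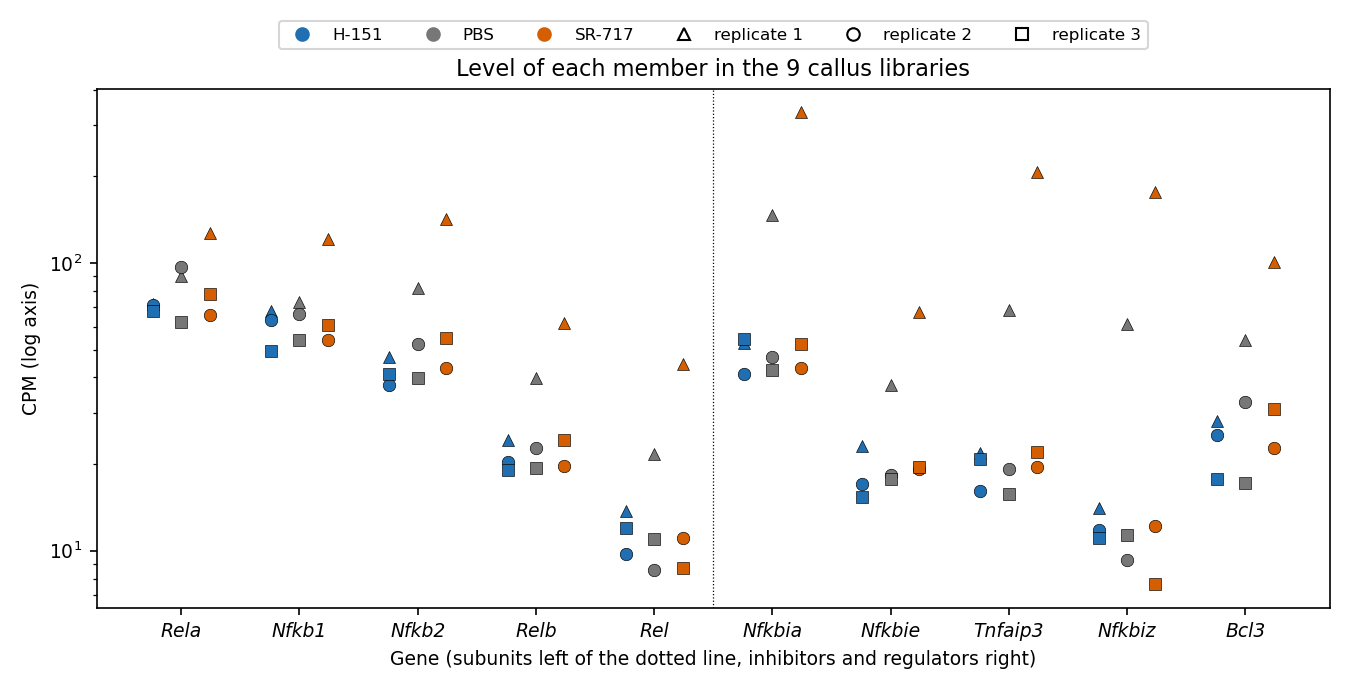
CPM of each of the 10 genes in each of the 9 libraries, on a log axis, coloured by group and shaped by replicate number. The top point of every gene is SR-717 replicate 1, and in 9 of 10 genes the next is PBS replicate 1, the exception being Rela.

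SR-717 was compared with H-151 to ask which genes differ between activating and inhibiting STING. All 10 genes had a mean that was higher with SR-717, with a median log2 fold change of 0.92, against 53.4% of the 14151 genes tested above 0 and a median over all genes of 0.02. None of the 10 passed the test. By edgeR's quasi-likelihood test, 0 of the 10 had an unadjusted p under 0.05, and their adjusted p was 0.996 throughout. Over all genes, 0.756% had an unadjusted p under 0.05 with a change of at least 1.5-fold (52 higher, 0.367%, and 55 lower, 0.389%), 146 genes (1.03%) had an unadjusted p under 0.05, and 0 an adjusted p under 0.05. None of the 10 genes had groups that did not overlap, against 2.67% of all genes with every SR-717 library higher and 2.51% with every one lower. DESeq2 found 1 of the 10 past p 0.05 with 1.5-fold (Nfkbia, unadjusted), and it gave no p for Nfkbiz and Tnfaip3. Its own share of all genes was 1.05% higher and 0.442% lower at these limits, with 281 genes under p 0.05.

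Nfkbiz, Tnfaip3 and Nfkbia had the largest differences between SR-717 and H-151 and the widest intervals. For Nfkbiz the means were 65.5 ± 96.3 and 12.3 ± 1.57 CPM (SD, n = 3 each), with a log2 fold change of 2.40 (95% interval -0.46 to 5.26, adjusted p = 0.996 by edgeR's quasi-likelihood test). Tnfaip3 had 82.8 ± 107 against 19.6 ± 3.07 CPM and a log2 fold change of 2.07 (-0.23 to 4.37). For Nfkbia the means were 143 ± 165 and 49.4 ± 7.17 CPM and the log2 fold change 1.52 (-0.42 to 3.46). The SD of the SR-717 group exceeded its mean for these 3 genes, and the SD of the H-151 group was far smaller. Bcl3 differed by 1.11 (-0.28 to 2.50) and Nfkbie by 0.92 (-0.37 to 2.21). Among the subunits the log2 fold change was 0.92 for Nfkb2 (-0.18 to 2.01), 0.84 for Rel (-0.68 to 2.36), 0.72 for Relb (-0.34 to 1.78), 0.37 for Nfkb1 (-0.43 to 1.18) and 0.35 for Rela (-0.26 to 0.96).

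Without SR-717 replicate 1, the differences between SR-717 and H-151 were near 0. Then 6 of the 10 genes lay above 0, their median log2 fold change was 0.03, and the values ranged from -0.32 (Nfkbiz) to 0.21 (Nfkb2), with the smallest unadjusted p at 0.227. Nfkbia stood at -0.06 (95% interval -0.46 to 0.33), Tnfaip3 at 0.07 (-0.35 to 0.50) and Rela at 0.02 (-0.27 to 0.31). Calls also moved when a library near the H-151 level was left out. Without SR-717 replicate 2, Nfkb2, Nfkbia, Nfkbiz, Tnfaip3 and Bcl3 passed an unadjusted p of 0.05 (5 genes, adjusted p 0.983), and without SR-717 replicate 3, Nfkbiz and Tnfaip3 did (adjusted p 0.694), by edgeR. In the same fits, the share of all genes under an unadjusted p of 0.05 was 2.8% (400 genes) and 5.27% (757 genes), against 1.03% with all libraries. Each of those fits set 2 SR-717 libraries, SR-717 replicate 1 among them, against 3.

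**Figure D3:**
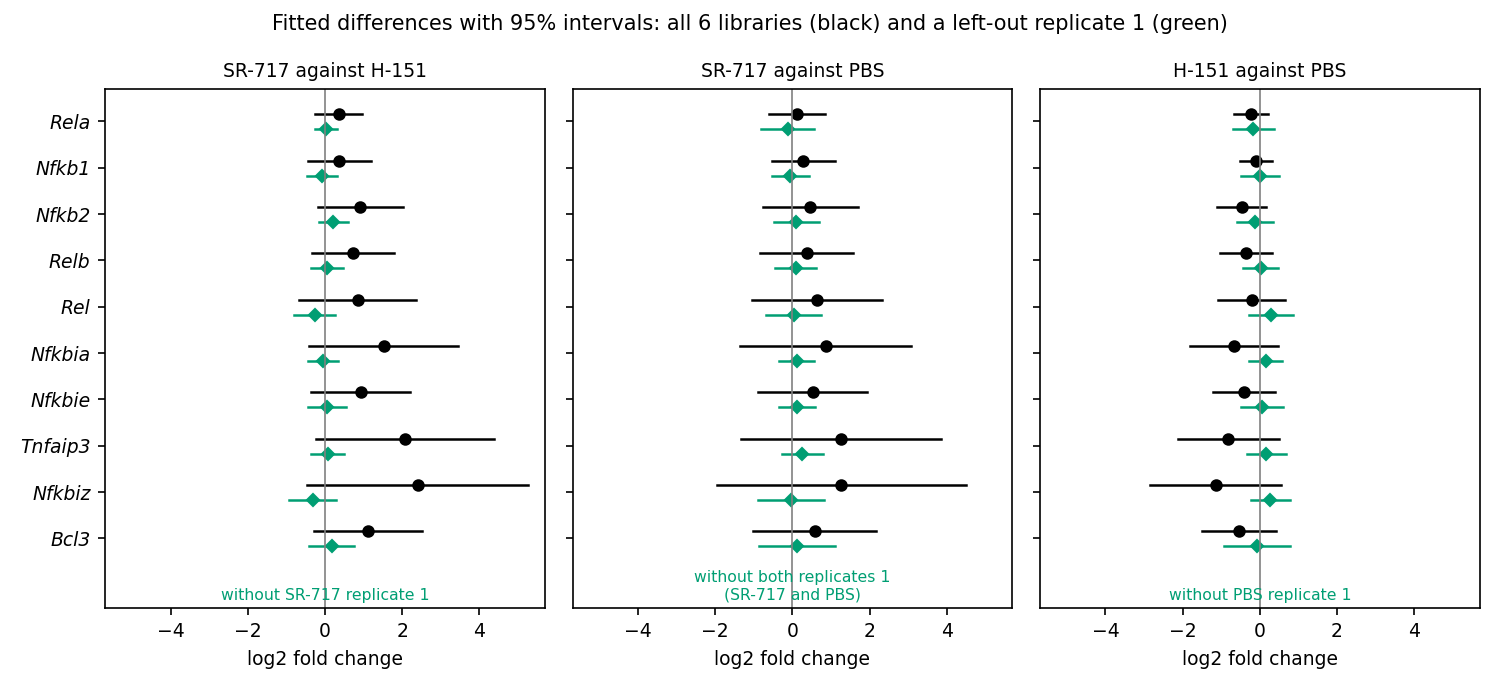
Log2 fold change of the 10 genes in the 3 comparisons, with 95% intervals, from all 6 libraries (black circles) and without whichever of SR-717 replicate 1 and PBS replicate 1 the comparison holds (green diamonds). With all libraries the SR-717 against H-151 values run from 0.35 (Rela) to 2.40 (Nfkbiz), and without SR-717 replicate 1 from -0.32 to 0.21.

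SR-717 was compared with PBS to set the agonist against the control injection. This comparison shares the SR-717 libraries with the one above. The 10 log2 fold changes were again above 0, with a median of 0.55 (52.2% of 14070 genes above 0, median 0.01). By edgeR, 0 of the 10 genes had an unadjusted p under 0.05 and 0 of 10 were past it with DESeq2 where a p was given. The share of all genes past an unadjusted p of 0.05 and 1.5-fold was 0.519% (38 higher, 0.27%, and 35 lower, 0.249%), with 97 genes (0.689%) under p 0.05 and 0 under an adjusted p of 0.05. Groups did not overlap in 1.49% of all genes with SR-717 higher and 2.26% with SR-717 lower, and in 0 of the 10. Same-numbered libraries deviated together here, and blocking on the replicate number gave 342 higher and 101 lower over all genes, with 0 of the 10 among them. With the block, the 10 log2 fold changes had a median of 0.36 and ran from 0.10 (Rela) to 0.70 (Tnfaip3), with Nfkbiz at 0.48 and Nfkbia at 0.45 (smallest adjusted p 0.999 by edgeR). Without the block, the log2 fold change was 1.26 for Nfkbiz (-1.96 to 4.49), 1.26 for Tnfaip3 (-1.32 to 3.85) and 0.86 for Nfkbia (-1.35 to 3.06), and for Rela it was 0.13 (-0.60 to 0.85). Between these lay Rel at 0.64, Bcl3 at 0.57, Nfkbie at 0.53, Nfkb2 at 0.46, Relb at 0.37 and Nfkb1 at 0.29. The sign followed which first library was kept. Without SR-717 replicate 1 alone, 0 of 10 lay above 0 (median -0.36), without PBS replicate 1 alone, 10 of 10 (median 1.00), and without both, 7 of 10 (median 0.09, from -0.12 for Rela to 0.26 for Tnfaip3).

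H-151 was compared with PBS to ask what inhibiting STING does to the callus, and it shares libraries with both comparisons above. All 10 genes had a log2 fold change below 0, with a median of -0.44, while 44.2% of 14085 genes lay above 0 and the median over all genes was -0.02. None passed the test. By edgeR 0 of 10 had an unadjusted p under 0.05, and DESeq2 called 0 of 10 as well. Over all genes, 0.426% passed an unadjusted p of 0.05 with 1.5-fold (37 higher, 0.263%, and 23 lower, 0.163%), 91 (0.646%) passed p 0.05 and 0 an adjusted p of 0.05. Groups did not overlap in 1.56% of all genes with H-151 higher and 2.31% with H-151 lower, and in 0 of the 10. Blocking on the replicate number gave 201 higher and 61 lower over all genes, with 0 of the 10 among them. With the block the 10 values had a median of -0.38, with Nfkbiz at -0.60, Tnfaip3 at -0.51 and Nfkbia at -0.44. Without it the values were -1.15 for Nfkbiz (95% interval -2.83 to 0.54), -0.82 for Tnfaip3 (-2.13 to 0.50), -0.67 for Nfkbia (-1.81 to 0.47) and -0.55 for Bcl3. The subunits lay between -0.46 (Nfkb2) and -0.10 (Nfkb1), and Nfkbie at -0.41. Without PBS replicate 1, 7 of 10 lay above 0 with a median of 0.03, from -0.17 (Rela) to 0.29 (Rel). Without PBS replicate 3, Rela (-0.40), Nfkb2 (-0.67) and Bcl3 (-0.87) passed an unadjusted p of 0.05 by edgeR, with an adjusted p of 1.00, and Nfkb2 and Bcl3 were also past 1.5-fold. That fit had 230 of all genes under p 0.05 (1.61%), against 0.646% with all libraries.

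Libraries of the same number were also set side by side. Between the libraries numbered 1, all 10 genes were higher with SR-717 than with PBS (median log2 difference 0.87) and higher than with H-151 (median 1.63). Between those numbered 2, 4 of 10 were higher with SR-717 than with PBS (median -0.16) and 6 of 10 higher than with H-151 (median 0.05). Between those numbered 3, 8 of 10 were higher with SR-717 than with PBS (median 0.31) and 7 of 10 higher than with H-151 (median 0.25). For H-151 against PBS the counts were 0, 2 and 6 of 10 for numbers 1, 2 and 3. Among all genes, between 47.1% and 51.8% were higher in the first-named group in each of these 9 pairs.

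The height of SR-717 replicate 1 above the mean of the other 2 SR-717 libraries differed among the 10 genes. It was 18.1-fold for Nfkbiz, 9.95-fold for Tnfaip3 and 7.01-fold for Nfkbia, and 4.48-fold for Rel, the highest of the subunits. Bcl3 was 3.78-fold, Nfkbie 3.47-fold, Nfkb2 2.92-fold and Relb 2.81-fold above, and Nfkb1 (2.11-fold) and Rela (1.77-fold) were lowest. PBS replicate 1 stood above the other 2 PBS libraries by 5.93-fold for Nfkbiz, 3.91-fold for Tnfaip3, 3.28-fold for Nfkbia, 1.22-fold for Nfkb1 and 1.16-fold for Rela. In both libraries, then, Nfkbiz, Tnfaip3 and Nfkbia stood furthest out and the canonical subunits Rela and Nfkb1 least. By role, the median log2 excess in SR-717 replicate 1 was 1.49 over the 5 subunits and 2.81 over the 5 inhibitors and regulators, and in PBS replicate 1 it was 0.84 and 1.71. The ranges of the roles overlapped. The excess was larger in SR-717 replicate 1 than in PBS replicate 1 in 10 of 10 genes, against 52.5% of all genes.

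Measured over all 14294 expressed genes, the median log2 excess was -0.03 in both libraries. SR-717 replicate 1 was the highest of the 9 libraries in 10 of the 10 genes and in 26.7% of all genes, and it was followed by PBS replicate 1 in 9 of the 10 and in 11.8% of all. An excess of at least 1 on the log2 scale in SR-717 replicate 1 was found for 9 of the 10 genes and 14.8% of all genes. H-151 replicate 1 stood above the other H-151 libraries by a median of 0.29 over the 10 genes. Of the marker lists, neutrophil, monocyte and macrophage and T cell genes were highest in SR-717 replicate 1 in 10 of 10, 10 of 10 and 6 of 6 cases, and osteoclast, chondrocyte and osteoblast genes in 0 of 8 each. Their part in the excess was not tested.

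**Figure D4:**
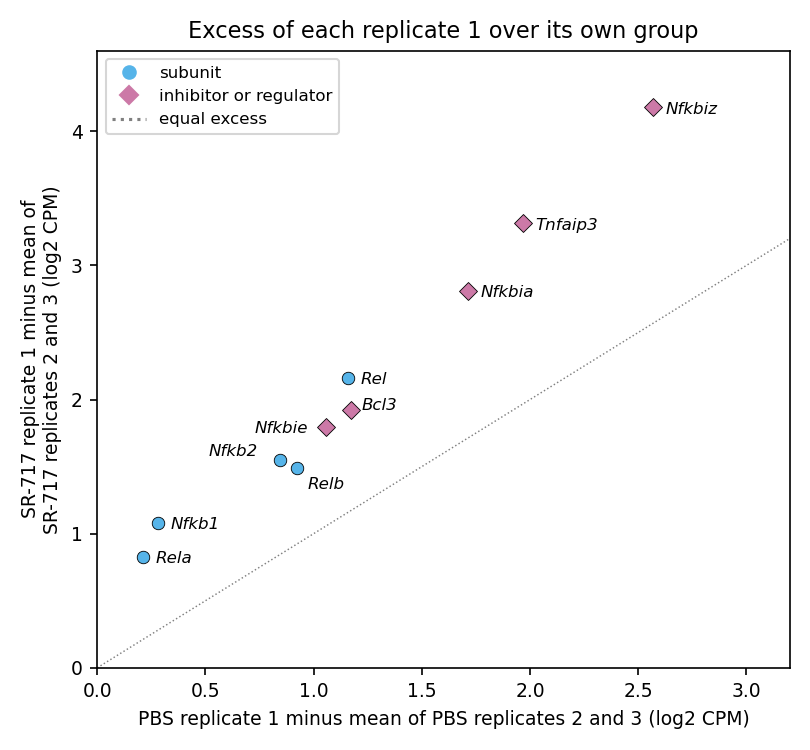
Log2 CPM excess of SR-717 replicate 1 (vertical axis) and of PBS replicate 1 (horizontal axis) over the mean of the other 2 libraries of the same group, 1 point per gene, circles for subunits and diamonds for inhibitors and regulators, with a dotted line of equal excess. All 10 points lie above the line, Nfkbiz being highest on both axes (4.18 and 2.57) and Rela lowest (0.83 and 0.21).

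Ratios within a library do not depend on its depth, so they show how the genes stood to each other. The TPM ratio of Nfkbia to Rela was 1.24, 0.99 and 1.33 with H-151, 2.72, 0.835 and 1.16 with PBS, and 4.35, 1.11 and 1.11 with SR-717. That of Tnfaip3 to Rela was 0.193, 0.159 and 0.194 with H-151, 0.486, 0.149 and 0.166 with PBS, and 1.04, 0.179 and 0.167 with SR-717. Both ratios were highest in SR-717 replicate 1, followed by PBS replicate 1. Ratios between subunits had a narrower range in the pairs Nfkb2 to Nfkb1 and Relb to Rela. The ratio of Nfkb2 to Nfkb1, the precursors of the non-canonical and canonical subunits, was 0.639, 0.560 and 0.750 with H-151, 0.992, 0.729 and 0.647 with PBS, and 1.08, 0.748 and 0.793 with SR-717. Relb to Rela ranged from 0.298 to 0.589 over the 9 libraries. Nfkbiz to Nfkb1 was 1.14 in SR-717 replicate 1 and 0.633 in PBS replicate 1, and 0.0943 to 0.179 in the other 7. In 8 of the 8 ratios computed, SR-717 replicate 1 was highest and PBS replicate 1 second. Bcl3 to Nfkb1 was 0.644, 0.660 and 0.570 with H-151, 1.13, 0.792 and 0.490 with PBS, and 1.31, 0.679 and 0.766 with SR-717. All 3 SR-717 libraries thus lay above all 3 H-151 libraries for this ratio, with a mean log2 difference of 0.50, or 0.21 without SR-717 replicate 1. It was the only 1 of 24 group comparisons of ratios without overlap, and the ratios were not tested.

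**Figure D5:**
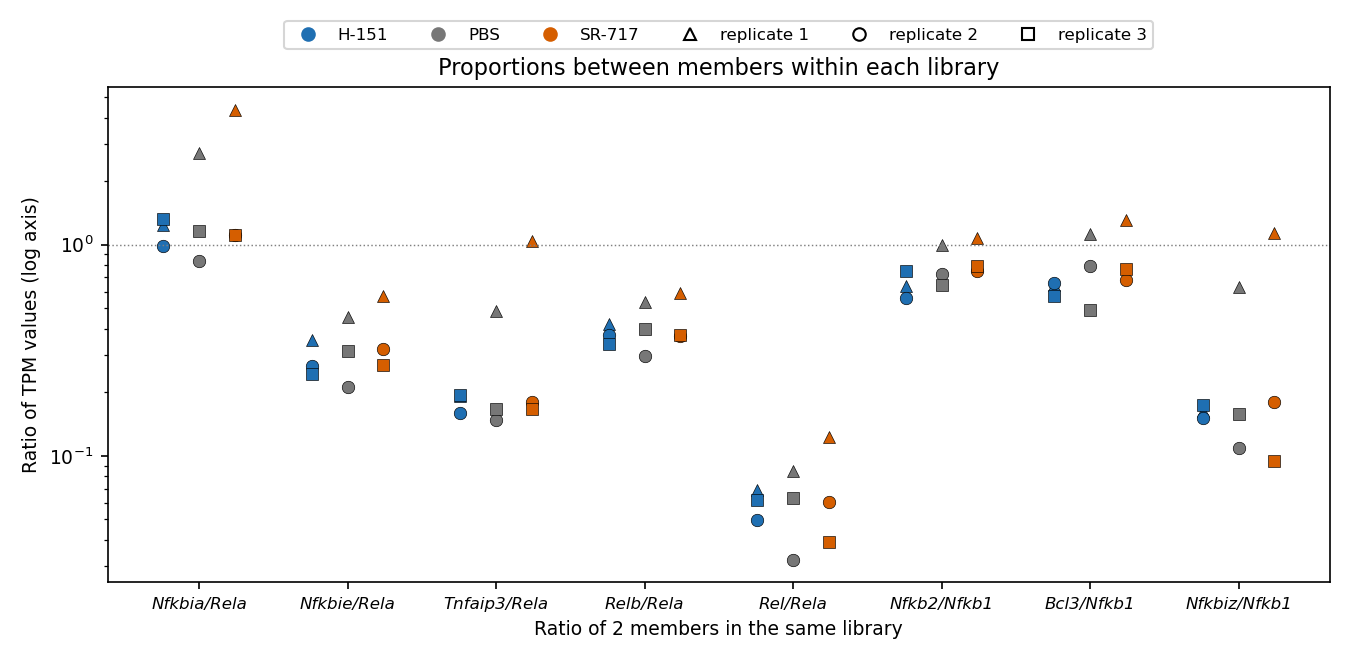
TPM ratios of pairs of the 10 genes in each library, on a log axis, coloured by group and shaped by replicate number. Nfkbia to Rela reaches 4.35 in SR-717 replicate 1 and 2.72 in PBS replicate 1, and the other 7 libraries lie between 0.835 and 1.33.

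The rest of the pathway was read from lists chosen by role. The IKK complex, which phosphorylates the IκB proteins, had 0 of 3 genes past p 0.05 with 1.5-fold in each comparison, with all libraries and without the first SR-717 and PBS libraries. Its catalytic subunit Ikbkb had 46.8, 42.1 and 43.5 CPM with H-151, 54.5, 44.1 and 46.6 with PBS, and 77.1, 49.0 and 45.9 with SR-717. Chuk (IKKα) had 14.9, 12.7 and 21.8, then 22.2, 11.5 and 44.1, then 32.2, 22.9 and 13.5 CPM in the same order. For Ikbkg, the regulatory subunit NEMO, the SR-717 libraries (53.6, 39.3 and 37.8 CPM) all lay above the H-151 libraries (34.2, 35.2 and 37.6), with a log2 fold change of 0.28 (unadjusted p = 0.141 by edgeR).

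Of the 3 other IκB proteins, 2 had the same pair of highest libraries as the inhibitors above. Nfkbib (IκBβ) had 59.9 CPM in SR-717 replicate 1, 28.6 in PBS replicate 1 and 15.4 to 22.5 in the others, and Nfkbid (IκBNS) had 31.3, 16.4 and 4.44 to 7.55. Nfkbil1 did not, with 20.3 CPM in SR-717 replicate 1, 14.2 in PBS replicate 1, the lowest of the 9, and 15.2 to 19.6 in the others. All 3 lay above 0 for SR-717 against H-151 (median log2 fold change 0.75), 0 passed, and without SR-717 replicate 1 the count was 2 of 3 (median 0.06). Of the ubiquitin editors and other brakes, 12 of 12 tested lay above 0 for SR-717 against H-151 (median log2 fold change 0.47), with 0 past p 0.05 with 1.5-fold, and Tnip3 was not tested. Tnip1 (ABIN-1), which recruits A20, had 252 CPM in SR-717 replicate 1, 99.2 in PBS replicate 1 and 57.9 to 85.1 in the others. Cyld, a deubiquitinase, had 47.5, 27.9 and 17.1 to 26.7. Without SR-717 replicate 1, 3 of the 12 brakes lay above 0 (median -0.05). In the list of 13 expressed genes, SR-717 replicate 1 was highest and PBS replicate 1 second in 9.

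Upstream, 0 of 25 canonical receptors and adaptors passed p 0.05 with 1.5-fold in any comparison, and 20 of 25 lay above 0 for SR-717 against H-151 (median 0.21), or 7 of 25 without SR-717 replicate 1 (median -0.06). In the non-canonical arm, 0 of 12 tested passed for SR-717 against H-151 (11 above 0, median 0.33, or 7 and 0.02 without SR-717 replicate 1) and Cd40lg was not tested. The kinase NIK, encoded by Map3k14, had 28.4 CPM in SR-717 replicate 1 and 13.2 to 18.0 in the other 8 libraries. Tnfsf11, which encodes the osteoclast factor RANKL, was the 1 gene of the arm past p 0.05 with 1.5-fold in any comparison. It passed for H-151 against PBS, where 0.163% of all genes were called lower (5.79, 5.82 and 5.45 against 24.3, 4.48 and 31.7 CPM, log2 fold change -1.82 ± 0.63 SE, unadjusted p = 0.0242 by edgeR, adjusted 1.00). Its SR-717 values were 31.3, 4.88 and 3.97 CPM, the H-151 and PBS groups overlapped, and without PBS replicate 1 no gene of the arm was past the threshold (0 of 12). Of the STING axis, 5 of 5 lay above 0 for SR-717 against H-151 (median 0.47) and 0 passed, and without SR-717 replicate 1 the count was 4 of 5.

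The target genes had larger fold changes by their median than the regulators. For SR-717 against H-151, 26 of 26 tested lay above 0 with a median log2 fold change of 2.25, and 5 passed p 0.05 with 1.5-fold (Tnf, Il1a, Cxcl3, Nos2 and Saa3, adjusted p 0.996 by edgeR), against 0.367% of all genes called higher. Il6, Ccl20, Csf2 and Csf3 were not tested, because too few libraries reached the minimum count. Even so, Il6 had 9.71 CPM in SR-717 replicate 1 and 13.1 in PBS replicate 1, and Csf3 had 21.8 and 11.1. Tnf had 80.9 CPM in SR-717 replicate 1, 19.5 in PBS replicate 1 and 2.14 to 3.92 in the other 7 libraries. Nos2, inducible nitric oxide synthase, had 328, 7.88 and 8.93 CPM with SR-717, 7.26, 5.72 and 5.72 with H-151, and 42.9, 9.72 and 6.01 with PBS. Its SR-717 libraries all lay above its H-151 libraries, as in 3 of the 26 tested targets, against 2.67% of all genes. Il1a had 77.7, 0.657 and 0.526 CPM with SR-717, 0.638, 0.394 and 0.445 with H-151, and 9.25, 0.465 and 0.225 with PBS. It passed the filter on low counts through the SR-717 libraries and was not tested for H-151 against PBS. Neither its call nor its sign is therefore separate support. Saa3, an acute phase protein, had 2412, 33.0 and 5.08 CPM with SR-717, 23.7, 5.67 and 2.22 with H-151, and 916, 2.66 and 2.08 with PBS. Icam1, an adhesion molecule, had 159, 30.7 and 38.0 CPM with SR-717, 39.2, 32.7 and 25.6 with H-151, and 70.6, 39.4 and 25.9 with PBS. Cxcl1, a neutrophil chemokine, had 67.7, 1.83 and 1.52 with SR-717, 2.75, 4.59 and 0.889 with H-151, and 37.7, 0.550 and 0.731 with PBS. For SR-717 against PBS, 25 of 26 lay above 0 (median 1.49) and 0 passed, and for H-151 against PBS, 2 of 25 lay above 0 (median -0.69) and 0 passed. Without SR-717 replicate 1, 11 of 26 lay above 0 for SR-717 against H-151 (median -0.04) and none of the 5 called genes was called. Ptgs2 passed in the lower direction (1 gene, against 0.554% of all genes). For SR-717 against PBS without both first libraries, 22 of 26 lay above 0 (median 0.45), and Il1b, Cxcl1, Ccl2 and Saa3 passed as higher (4 genes, against 0.579% of all genes). Without PBS replicate 1, 20 of 25 lay above 0 for H-151 against PBS (median 0.39), against 48.8% of all genes. Cxcl1 and Ptgs2 passed as higher with H-151 in that fit (2 genes, against 0.527% of all genes). Ptgs2, the inducible prostaglandin synthase, Il1b and Ccl2 are named here after their values were seen. In 23 of the 27 expressed targets, SR-717 replicate 1 was highest and PBS replicate 1 second.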

How the data were processed

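Total RNA of day 7 fracture callus was sequenced by a service company as strand-specific, paired-end poly(A) libraries, 3 each for H-151, PBS and SR-717. The submitters' processing notes name the mouse build mm10. The aligner, the counting program and the annotation are not given in the sources used here, nor whether counting used the strand of the reads. The deposited expected counts are not normalized, and 3168 of the 22054 genes carry a fractional value somewhere among the libraries. The deposited table also holds TPM values that the authors scaled for gene length and library total. Samples were grouped from the labels.

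Expected counts were rounded to whole numbers, as the design allowed for values that were not whole. Each pair of groups (6 libraries) was fitted over all genes in edgeR 4.0.16 (R 4.3.3) with filterByExpr (minimum count 10, total 15), TMM and the quasi-likelihood test, with Benjamini-Hochberg adjustment and no covariate. A gene was counted past the threshold at an unadjusted p under 0.05 with at least 1.5-fold, the limits the study's text gives, and separately at an adjusted p under 0.05. CPM used the TMM library sizes, and log2 CPM a prior count of 2. Excess, ratios, profiles and marker sums were described without a test. The model script was tested on simulated data. DESeq2 1.42.0, another scaling, no filter, a mean count of 50, a 2-fold threshold, a shared fit of all 9 libraries, a block on the replicate number, and each library left out were tried. Leaving out both first libraries, and list counts without a first library, were added after the data were seen.

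The 10 genes and all lists were chosen with earlier results of these data known. Named in the text are all 10, of each other list up to 3 genes of smallest p past the threshold, a fixed set of regulators and targets (Ikbkb, Chuk, Ikbkg, Nfkbib, Nfkbid, Map3k14, Tnip1, Cyld, Tnf, Cxcl1, Icam1), and the 5 genes of most similar profile. Cxcl3 is named to complete a count.

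Whether replicate numbers pair the libraries was checked from the correlation of deviations from the group means. It was 0.65, 0.34 and 0.14 for numbers 1, 2 and 3 of SR-717 and PBS, and 0.30, 0.49 and 0.50 for H-151 and PBS, so the blocked values are given beside the unblocked ones there, although the labels state no pairing. It was 0.34, 0.06 and 0.08 for SR-717 and H-151, which were not treated as paired. Positions come from GENCODE on GRCm38, and promoter sequences from RefSeq on GRCm38.p6.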

Additional observations from a re-analysis of the deposited data

How the results depend on the processing

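For SR-717 against PBS, none of the 10 genes passed the threshold under any setting that gave a p, and DESeq2 gave none for Nfkbiz and Tnfaip3. For SR-717 against H-151, DESeq2 called 1 of the 10 higher, and leaving out a library gave 0 to 5. For H-151 against PBS, leaving out a library gave 0 to 2 called lower. Of 366 refits of the 30 fold changes, 329 kept direction and side, 11 passed p 0.05 and 26 changed sign, 24 of those without SR-717 replicate 1, PBS replicate 1 or both. The cause was not tested.

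Counts over all genes moved more. For SR-717 against H-151, the 52 higher were 147 with DESeq2, 123 without a filter, 109 with all 9 libraries fitted and 19 to 544 with a library left out. The 55 lower were 100 without a filter, 24 at a mean count of 50, 30 at 2-fold and 36 to 170 with a library left out, and DESeq2 gave 1 gene at an adjusted p under 0.05. For SR-717 against PBS, the 38 higher were 93 with DESeq2, 141 without a filter, 20 at a mean of 50, 117 with all 9 libraries, 82 without both first libraries and 60 to 261 leaving one out. The 35 lower were 53, 17 and 59 without a filter, at a mean of 50 and with all 9 libraries, 14 at 2-fold and 24 to 108 leaving one out. For H-151 against PBS, the 37 higher were 89 without a filter, 17 at a mean of 50, 19 at 2-fold and 30 to 482 leaving one out. The 23 lower were 39 with DESeq2, 38, 11 and 14 without a filter, at a mean of 50 and at 2-fold, and 13 to 216 leaving one out.

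Blocking on the replicate number gave 88 higher and 55 lower for SR-717 against H-151, 342 and 101 for SR-717 against PBS, and 201 and 61 for H-151 against PBS. The block changed no call of the 10. By the labels, every pair of groups shares only a replicate number. Of the 9 libraries, 8 correlated best with their own number, a hint from the data and not the design. With the block, the log2 fold changes of the 10 genes for SR-717 against H-151 had a median of 0.70 and ran from 0.29 to 1.13. Without the block, their median was 0.92 and they ran from 0.35 to 2.40.

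Direction changed for SR-717 against PBS without both first libraries, an alternative chosen after seeing the data, in Rela (-0.12), Nfkb1 (-0.054) and Nfkbiz (-0.031). Leaving out 1 library, the SR-717 against H-151 values ran from -0.27 to 1.21 (Rel), -0.079 to 0.58 (Nfkb1), -0.061 to 1.95 (Nfkbia) and -0.32 to 2.92 (Nfkbiz). With PBS as reference, SR-717 values ran from -0.20 to 0.31 (Rela), -0.32 to 0.74 (Relb), -0.48 to 1.13 (Rel), -0.17 to 0.49 (Nfkb1), -0.25 to 0.80 (Nfkb2), -0.73 to 1.67 (Nfkbia), -1.47 to 2.67 (Nfkbiz), -0.35 to 0.97 (Nfkbie), -0.74 to 2.24 (Tnfaip3) and -0.37 to 1.04 (Bcl3). H-151 against PBS ran from -0.56 to 0.022 (Relb), -0.46 to 0.29 (Rel), -0.21 to 0.025 (Nfkb1), -0.97 to 0.15 (Nfkbia), -1.56 to 0.27 (Nfkbiz), -0.60 to 0.046 (Nfkbie) and -1.16 to 0.17 (Tnfaip3).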

Other observations

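The genes whose profile over the 9 libraries lay closest to the mean profile of the 10 NF-κB genes were Irak2, N4bp1, Fnip2, Fcer1g and Cfp, measured by the root mean square difference of centred log2 CPM (0.110, 0.123, 0.131, 0.136 and 0.141). Irak2, a kinase adaptor of IL-1 and Toll-like receptors, had 26.3, 20.4 and 19.6 CPM with H-151, 41.9, 22.1 and 17.8 with PBS, and 107, 20.9 and 20.3 with SR-717. Fcer1g, the common Fc receptor γ chain of myeloid cells, had 501 CPM in SR-717 replicate 1, 260 in PBS replicate 1 and 93.1 to 144 in the other 7. Among the 10, Nfkbie lay closest to their mean profile (0.125) and Nfkbiz furthest (0.726). When the profile was taken without SR-717 replicate 1, Irak2 and N4bp1 stayed among the 5 nearest, joined by Arid5b, Pik3r5 and Tgif1. The likeness rests on points that share libraries and is a description of these 9 only.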
